A study of Mus musculus with 2 samples.

Results

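The 5 miRNA genes Mir21a, Mir29a, Mir29b-1, Mir29b-2 and Mir29c encode the mouse miR-21 and miR-29 miRNAs, known from studies of cardiac fibrosis. They were chosen by gene symbol, without use of their counts, and are 5 of the 2202 miRNA genes in each deposited table. The tables come from microRNA-seq of heart tissue of male B6CASTF1/J mice (hybrids between a C57BL and a CAST parent) aged 4 days, with no treatment named in the labels. There is 1 group of 2 biological replicates with 1 library each, made from the animals numbered 3 (replicate 1) and 4 (replicate 2), and no other condition. Both samples carry the same donor identifier in the labels, so the spread over them is between hearts if the animal numbers mark separate mice, and technical if they do not. Since the heart was sequenced in bulk, fewer cells of a type and less RNA per cell cannot be told apart for any value below.

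A miRNA is cut from a hairpin transcript, and 1 of its arms guides the silencing complex to mRNAs that pair with its seed, bases 2 to 8. miR-21 is made in many cell types, fibroblasts included, and is known for repressing Spry1, an inhibitor of growth factor signalling, and Pdcd4, a translation inhibitor, and for rising in the stressed heart. miR-29 is known for repressing collagens, elastin and fibrillin, and in the adult mouse heart it was found mostly in fibroblasts. Work in mice has tied a rise of miR-21 and a loss of miR-29 to cardiac fibrosis, although the role of miR-21 has been disputed.

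The mature arms show why the 5 genes fall into 2 families and which of them can be counted apart. The main arm of miR-21 and the 3p arms of miR-29 are given here 5′ to 3′ from the RefSeq table of build GRCm38.p6, with the seed in capitals.
miR-21a-5p: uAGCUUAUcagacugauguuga
miR-29a-3p: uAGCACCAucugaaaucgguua
miR-29b-3p: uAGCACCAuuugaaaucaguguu
miR-29c-3p: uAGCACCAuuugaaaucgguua
The miR-29 3p arms share the seed AGCACCA, and no other mouse miRNA of the table has it. miR-29a-3p and miR-29c-3p were identical at 21 of 22 positions, the difference being C10U (positions counted from 1 at the 5′ end, the base of miR-29a-3p first). miR-29b-3p matched miR-29c-3p at 19 of 22 positions, with A18G, G21U and U22A (the base of miR-29b-3p first), and is 1 base longer. The miR-21 seed AGCUUAU is shared with a single other entry, miR-21c, which equalled miR-21a-5p at 16 of 21 positions. A further relative, miR-21b, differs within the seed, by C4U (the base of miR-21a-5p first).
miR-21c: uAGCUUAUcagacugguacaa
miR-21b: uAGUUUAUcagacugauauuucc
Mir21b and Mir21c had 0 sense counts in both libraries, where a count of 0 allows up to 3 counts, or 0.715 CPM in replicate 1 and 0.789 CPM in replicate 2.

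Sense counts over the 2202 genes totalled 4196577 in replicate 1 and 3801738 in replicate 2, which is 43.8% and 40.9% of the reads accounted for in each table. Multi-mapped reads were 38.1% of the reads in replicate 1 and 42.3% in replicate 2, and they are counted for no gene. Levels are in CPM (count / sense total × 1000000), so that 1 read is 0.238 CPM in replicate 1 and 0.263 CPM in replicate 2. Counts were not divided by length, since a read spans a whole mature miRNA. How well each miRNA sequence was ligated and amplified was not measured, so levels of different miRNAs are compared as read counts. Intervals are 95% and cover counting error only, and SDs are over n = 2 libraries. The tables hold 680 genes with a count in replicate 1 and 665 in replicate 2.

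Ranks and shares here are among reads assigned to a gene, where miRNAs made from several gene copies lose their multi-mapped reads. Such miRNAs may stand too low in this order. Among assigned reads, Mir21a was the most counted of the 5 genes and among the most counted miRNA genes of the heart libraries. It had 49018 sense counts in replicate 1 and 58678 in replicate 2. This is 11680.5 and 15434.5 CPM, a mean of 13557.5 ± 2654.5 CPM (SD, n = 2). Of all sense counts it took 1.17% in replicate 1, with a Wilson interval of 1.16 to 1.18%, and 1.54% in replicate 2, with an interval of 1.53 to 1.56%. It ranked 22 among the 2202 genes in replicate 1 and 16 in replicate 2. Of the 441 genes with 10 or more counts over both libraries, 95.7% had a lower mean CPM. The gene lies on the minus strand at chr11:86584067-86584158 (mm10), all 92 bases of its hairpin within an annotated untranslated exon of Vmp1, an autophagy gene, on the same strand. Only 1 read in replicate 1 and 0 in replicate 2 fell on the opposite strand of Mir21a.

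By mean level Mir21a stood between Mir30a and Mir30e, members of the miR-30 family, and its range over the libraries overlapped with both. Mir30e was also the gene whose levels were closest to those of Mir21a over both libraries, at a Euclidean distance of 0.25 in log2(CPM + 1), with 12220 CPM in replicate 1 and 13026 in replicate 2. Next came Mir30a at a distance of 0.43 and Mir139 at 0.45. With 2 libraries such likeness says little beyond a similar level.

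Mir29a made up most of the counted miR-29 reads. It had 2258 counts in replicate 1 and 771 in replicate 2, or 538 and 203 CPM (370 ± 237 CPM, SD, n = 2). It was thus lower in replicate 2, and its SD was large beside its mean. Its rank was 103 in replicate 1 and 140 in replicate 2. The gene lies on the minus strand at chr6:31062660-31062747, in no other annotated gene. The nearest gene by level over both libraries was Mir152, of the miR-148 family, with 531 CPM in replicate 1 and 200 CPM in replicate 2 at a distance of 0.025. Mir25 followed at 0.20 and Mir299a at 0.34. The neighbours of Mir29a by mean level were Mir450b above and Mir152 below, and its range overlapped with both.

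Mir29c was the second of the miR-29 genes by level. It had 350 counts in replicate 1 and 186 in replicate 2, or 83.4 and 48.9 CPM (66.2 ± 24.4 CPM, SD, n = 2), ranks 184 and 199. The ranges of Mir29a and Mir29c did not overlap, and within each library Mir29a was higher, by 6.45-fold in replicate 1 (exact interval 5.76 to 7.24), against 4.15-fold in replicate 2 (3.53 to 4.89). The 2 intervals do not overlap either. Mir29c lies on the plus strand at chr1:195037547-195037634, in an exon of the non-coding transcript gene A330023F24Rik on the same strand and opposite an untranslated exon of Cd46, a complement regulator. No read of Mir29c was counted on the opposite strand. Its nearest genes by level were Mir673 at a distance of 0.071, Mir1193 at 0.22 and Mir323 at 0.25, and its neighbours by mean, Mir505 and Mir26a-2, both overlapped with its range.

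**Figure D1:**
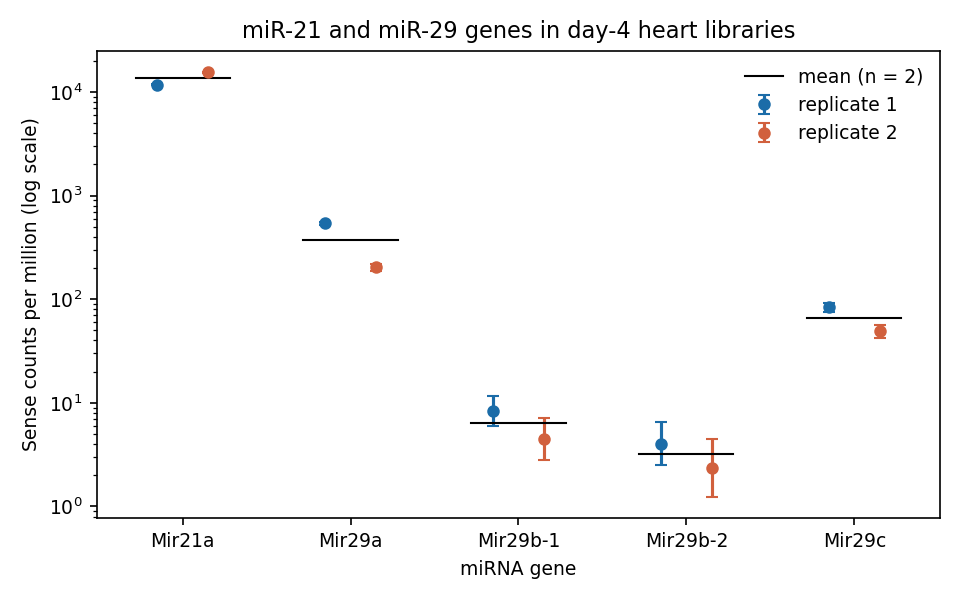
Sense CPM on a log axis for each of the 5 genes, with 1 point for each library (bars are 95% Wilson intervals of counting error) and a line at the mean of n = 2. Mir21a stands at 11680.5 CPM in replicate 1 and 15434.5 CPM in replicate 2, the miR-29 genes stand between 2.37 and 538 CPM, and each miR-29 point of replicate 1 is above that of replicate 2.

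The Mir29b genes were near the lower end of what was counted. Mir29b-1, at chr6:31063023-31063093 on the minus strand, had 35 counts in replicate 1 and 17 in replicate 2, or 8.34 and 4.47 CPM (6.41 ± 2.74 CPM, SD, n = 2). Mir29b-2, at chr1:195037040-195037120 on the plus strand, had 17 counts in replicate 1 and 9 in replicate 2, or 4.05 and 2.37 CPM (3.21 ± 1.19 CPM). The 2 genes make the same mature 3p arm, and their order was the same in both libraries. Mir29b-1 was 2.06-fold above Mir29b-2 in replicate 1 (exact interval 1.12 to 3.92), against 1.89-fold in replicate 2 (0.796 to 4.81), where the interval takes in an equal level. Both genes overlapped in range with their neighbours by mean level, Mir6240 and Mir488 for Mir29b-1 and Mir133b and Mir365-1 for Mir29b-2.

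These low counts are lower limits, because a read of miR-29b-3p cannot be given to 1 of its 2 genes. The hairpins, from the same RefSeq build, are shown with both mature arms in capitals, the 3p arm being the later one.
Mir29b-1: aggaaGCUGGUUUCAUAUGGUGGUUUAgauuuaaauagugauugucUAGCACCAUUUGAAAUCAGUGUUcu
Mir29b-2: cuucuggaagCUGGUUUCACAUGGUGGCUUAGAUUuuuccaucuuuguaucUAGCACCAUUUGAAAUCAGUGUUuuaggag
Every 18-base window of the 3p arm (6 of 6) and every 20-base window (4 of 4) occurs in both hairpins. None of the windows of the 5p arms, or of either arm of Mir21a, Mir29a and Mir29c, occurs in another of the 2202 annotated hairpins. Over whole hairpins, 9 of the 52 windows of 20 bases in Mir29b-1 and 6 of 62 in Mir29b-2 were shared, against 3 of 69 in Mir29c and 0 of 69 in Mir29a. The 20-base windows of Mir29c that were shared occur in Mir29b-1. How many of the 3657699 multi-mapped reads of replicate 1 and the 3929811 of replicate 2 are miR-29b-3p cannot be read from the tables. The tables do not name the arm of a counted read either. By sequence, a read that lies within the 3p arm fits both Mir29b hairpins. Reads counted for 1 Mir29b gene should thus come from the 5p arm or reach beyond the 3p arm. The sole other miRNA with a seed of these hairpins' 5p arms was miR-6338, with UGGUUUC as in miR-29b-2-5p, and its gene Mir6338 had 0 counts in both libraries.

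The 4 miR-29 genes lie in 2 pairs, and the pairs differed in assigned reads. Mir29a and Mir29b-1 are 275 bases apart on chromosome 6, and Mir29b-2 and Mir29c are 426 bases apart on chromosome 1. The chromosome 6 pair summed to 546 CPM in replicate 1 and 207 CPM in replicate 2. The chromosome 1 pair summed to 87.5 CPM in replicate 1 and 51.3 CPM in replicate 2. The chromosome 6 pair was thus 6.25-fold higher in replicate 1 (exact interval 5.59 to 6.99), against 4.04-fold in replicate 2 (3.45 to 4.75). Within the pairs, Mir29a exceeded Mir29b-1 by 64.5-fold (46.2 to 92.9) in replicate 1 and 45.4-fold (28.1 to 78.3) in replicate 2. Mir29c exceeded Mir29b-2 by 20.6-fold (12.7 to 35.7) and 20.7-fold (10.7 to 45.9). Both of these ratios set a gene against a lower limit, and may be too high to the extent that miR-29b-3p reads were set aside. The pair sums each hold a Mir29b gene, so they are lower limits too, and the ratio between the pairs is that of the reads assigned to a gene.

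Over the miR-29 genes together, 2660 reads were counted in replicate 1 and 983 in replicate 2, or 634 and 259 CPM (446 ± 265 CPM, SD, n = 2). Mir29a alone made up 84.9% of them in replicate 1, with a 95% Wilson interval of 83.5 to 86.2%, against 78.4% in replicate 2, where the interval was 75.8 to 80.9%. Mir29c gave 13.2% (11.9 to 14.5%) in replicate 1 and 18.9% (16.6 to 21.5%) in replicate 2. Mir29b-1 gave 1.32% and 1.73%, and Mir29b-2 gave 0.639% and 0.916%. The order of the 4 genes was the same in both libraries, while the share of Mir29a was lower in replicate 2 by more than the counting intervals.

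Among reads assigned to a gene, Mir21a was counted far more often than all miR-29 genes together. The ratio of Mir21a to the summed miR-29 genes was 18.4 in replicate 1 (exact interval 17.7 to 19.2), against 59.7 in replicate 2 (56.0 to 63.6), a mean log2 ratio of 5.05 ± 1.20 (SD, n = 2). To Mir29a alone it was 21.7 (20.8 to 22.7) in replicate 1 and 76.1 (70.9 to 81.8) in replicate 2. These ratios do not depend on how the libraries are scaled to each other. Among the reads counted for a gene, Mir21a was thus over 10-fold above the miR-29 genes in both libraries, and the ratio varied between the libraries by more than its counting error, with Mir21a lower and Mir29a higher in replicate 1. For miR-29 as a family the ratios are upper limits, since miR-29b-3p reads that map to both genes are not counted, and by how much they are too high cannot be read from the tables.

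**Figure D2:**
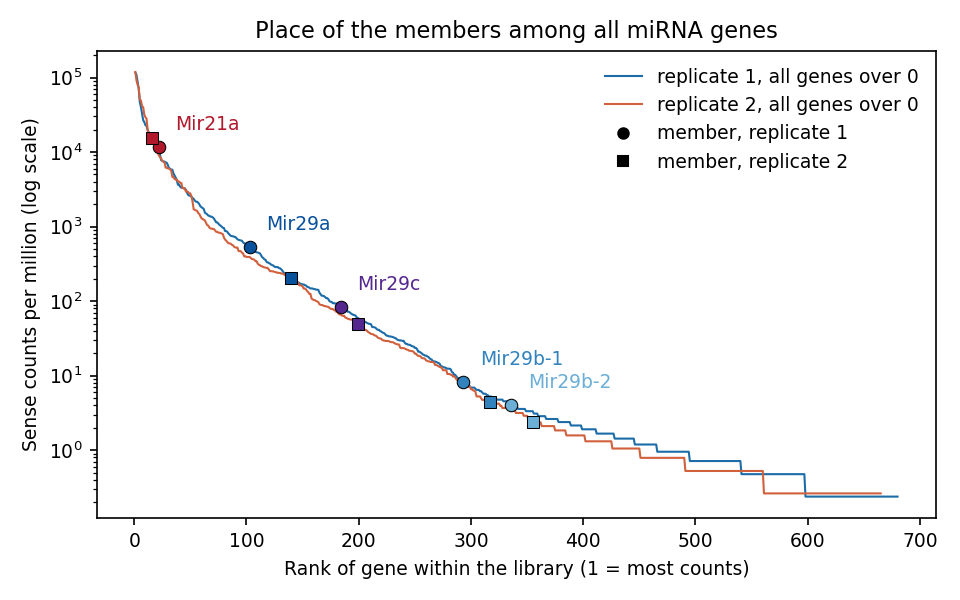
CPM on a log axis against the rank of each gene within its library, with lines for all genes over 0 in each library and marks for the 5 genes (circles replicate 1, squares replicate 2). Mir21a lies at ranks 22 and 16, Mir29a at 103 and 140, Mir29c at 184 and 199, Mir29b-1 at 293 and 317, and Mir29b-2 at 336 and 355.

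The 2 libraries were also compared gene by gene, which asks whether their counts differ by more than counting error and says nothing of a condition. Two-sided Fisher's exact tests with Benjamini-Hochberg adjustment over the 441 genes called 251 of them, or 56.9%, at an adjusted p under 0.05. Of the 5 genes, 3 were called. Mir29a and Mir29c were higher in replicate 1, as were 36.5% of the tested genes, and Mir21a was lower in replicate 1, as were 20.4%. With 56.9% of all tested genes called, 3 of 5 is near the background and is no result about these genes.

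Mir29a was 2.65-fold higher in replicate 1 than in replicate 2 (95% interval 2.44 to 2.88), a log2 ratio of 1.40 on the log2(CPM + 1) scale, with an adjusted p of 2.2e-136 by Fisher's exact test. It was the one member over 2-fold apart among the 3 with a mean count of 100 or more, against 42 of 243 genes, or 17.3%, by the same rule. At that depth 25 of the 243 genes, or 10.3%, were at least as far apart as Mir29a. Mir29c was 1.70-fold higher in replicate 1 (1.42 to 2.05), with an adjusted p of 6.2e-09 by Fisher's exact test, and 69 genes (28.4%) were at least as far apart. Mir21a was 0.757 times as high in replicate 1 as in replicate 2 (0.748 to 0.766), a log2 ratio of -0.40. Its p by Fisher's exact test was too small for double precision, and 131 genes (53.9%) were at least as far apart. By size alone, the difference of Mir21a was thus near the middle of genes with a mean count of 100 or more. Most of these genes had far fewer counts than Mir21a. With its direction taken into account, Mir21a stood nearer the lower end, since 71 of the 441 tested genes had a lower log2 ratio. Mir29b-1 had a ratio of 1.87 (1.02 to 3.55) with an adjusted p of 0.062 by Fisher's exact test, and Mir29b-2 a ratio of 1.71 (0.721 to 4.36) with an adjusted p of 0.33. At 35 and 17 counts, and 17 and 9 counts, a difference of this size was not called.

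**Figure D3:**
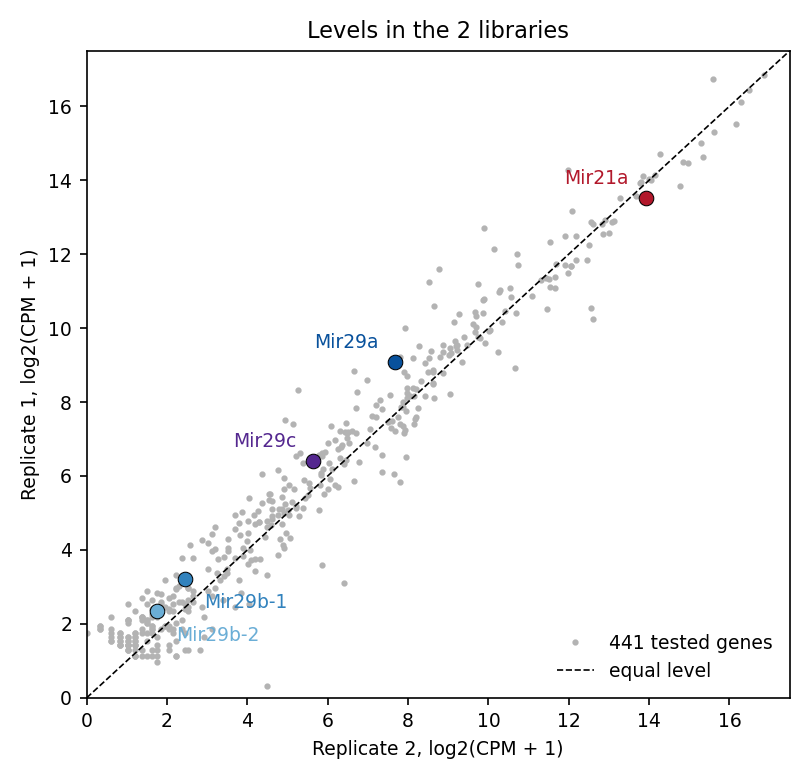
Level in replicate 1 (vertical axis) against replicate 2 (horizontal axis), both as log2(CPM + 1), for the 441 tested genes (grey) and the 5 genes (coloured), with a dashed line of equal level. The 4 miR-29 genes lie above the line and Mir21a lies below it.

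The tested genes as a whole were shifted to replicate 1, with a median log2 ratio of 0.26 and 63.5% of the genes positive. Relative to that median, Mir29a was higher by 1.14, Mir29c by 0.50, Mir29b-1 by 0.51 and Mir29b-2 by 0.32, and Mir21a was at -0.66. Scaling by TMM moved the median of all tested genes by -0.20 and scaling by DESeq2 size factors moved it by -0.26. The Fisher calls then split into 116 higher and 124 lower in replicate 1 with TMM, and 104 higher and 136 lower with DESeq2 size factors, against 161 higher and 90 lower with library totals. Direction was the same under each of these scalings for all 5 genes, with log2 ratios of 1.16 and 1.09 for Mir29a and of -0.65 and -0.71 for Mir21a under TMM and DESeq2 size factors. edgeR's exact test, which takes the spread between the libraries from all genes (344 entered its dispersion fit, a coefficient of variation of 0.379), called 2 genes and none of the 5. The unadjusted p-values of that test were 0.15 for Mir29a, 0.41 for Mir21a, 0.52 for Mir29c and Mir29b-1 and 0.64 for Mir29b-2, with every adjusted p at 1, and 25 of the 441 genes had an unadjusted p under 0.05.

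**Figure D4:**
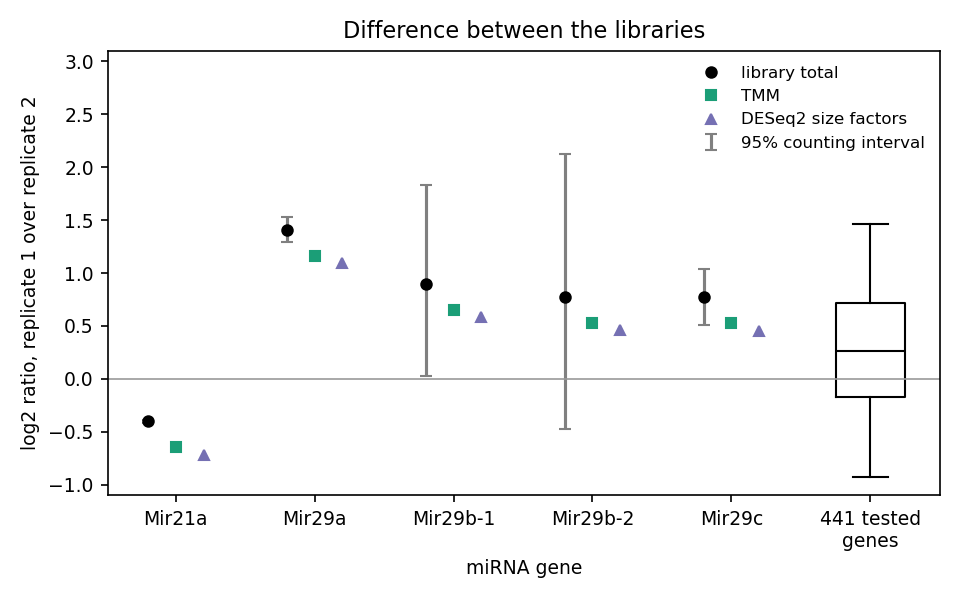
Log2 ratio of replicate 1 over replicate 2 for each of the 5 genes, without a pseudocount, under 3 scalings (bars are 95% counting intervals of the ratio on library totals), beside a box of all 441 tested genes on the log2(CPM + 1) scale (median 0.26, quartiles, whiskers at the 5th and 95th percentiles). Mir29a stands near the upper whisker at 1.47, Mir29c, Mir29b-1 and Mir29b-2 are above 0, and Mir21a is below 0 under each scaling.

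Markers of several cell types moved between the same libraries. Of the cardiomyocyte markers, all 7 had counts and their sum was 13094 CPM in replicate 1 and 8924 CPM in replicate 2, nearly all of it from Mir499, Mir208b and Mir208a, which were each called higher in replicate 1. Mir1a-2, at 33.1 CPM in replicate 1 and 54.4 CPM in replicate 2, and Mir133a-1, at 2.62 and 7.63 CPM, were called lower in replicate 1. Mir1a-1, at 2.38 and 3.42 CPM, and Mir133a-2, at 1.67 and 1.32 CPM, were not called. The paired Mir1a genes make the same mature arm, as do the paired Mir133a genes. Their counts and the cardiomyocyte sum are thus lower limits, and their calls are those of reads assigned to a gene. Mir126a, the endothelial marker, had 109199 CPM in replicate 1 and 49330 CPM in replicate 2, and Mir126b had 3 counts in replicate 1 and 0 in replicate 2. The smooth muscle and pericyte markers Mir143 and Mir145a summed to 48576 CPM in replicate 1 and 79468 CPM in replicate 2. The mesenchymal and fibroblast markers summed to 6781 CPM in replicate 1 and 1020 CPM in replicate 2. That sum is nearly all Mir214, at 6683 and 941 CPM, while Mir199a-2 had 33.4 and 23.4 CPM, Mir199b had 64.3 and 56.0 CPM, and Mir199a-1 was at 0 in both. Mir199a-1 and Mir199a-2 make the same mature arms, so their counts are lower limits too. Whether Mir199b shares an arm with them was not tested, so its count may be a lower limit as well. The large part of Mir214 in the sum is thus that of reads assigned to a gene. White blood cell markers (3 of 3 with counts) summed to 523 CPM in replicate 1 and 735 CPM in replicate 2, and red blood cell markers (3 of 3) to 493 and 400 CPM. Of the latter, Mir451a was at 234 CPM in both libraries. Mir486 had 142 CPM in replicate 1 and 103 CPM in replicate 2, and Mir144 had 117 and 63.7 CPM. The part of the cell makeup in the differences of Mir21a and the miR-29 genes was not tested.

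Other miRNAs studied in cardiac fibrosis give a scale for these levels. Of 26 listed genes, 25 were found by symbol and 24 were tested. The listed Mir18a stands in the annotation as Mir18, with 729 CPM in replicate 1 and 587 CPM in replicate 2. It was missed by symbol and is not in the counts below. Fisher's exact tests called 14 of the 24 (58.3%) higher and 4 (16.7%) lower in replicate 1, against 36.5% and 20.4% of all tested genes. These shares are not at like depth, since genes with more counts are called more easily. The 24 had a median mean level of 153.6 CPM, against 35.0 CPM for all tested genes. The log2 ratios of the 24 ran from -3.29 to 2.83, with a median log2 ratio of 0.22, near the 0.26 of all tested genes. Several of the listed genes have a further copy that makes the same mature arm. Among these are Mir24-1 and Mir24-2, Mir26a-1 and Mir26a-2, Mir19b-1 with its copy Mir19b-2, and the paired Mir30c, Mir125b, Mir133a and Mir199a genes. Their counts are lower limits. The count of Mir199b may be one too, as whether it shares an arm with the Mir199a genes was not tested. The order of the listed genes given here is that of reads assigned to a gene. In that order a single one of them, Mir30a, had a higher mean level than Mir21a, at 15554 CPM in replicate 1 and 14063 CPM in replicate 2. Of those found by symbol, 9 were above Mir29a, and Mir18 was above it as well. Mir22, a miRNA of cardiac hypertrophy, had 19704 CPM in replicate 1 and 4030 CPM in replicate 2. Mir208a, made from an intron of the myosin gene Myh6, had 2091 CPM in replicate 1 and 1259 CPM in replicate 2. Mir22 and Mir214 were thus further apart between the libraries than any of the 5 genes, with log2 ratios of 2.29 and 2.83. The largest difference of the list ran the other way, in Mir26a-1, which had 7.63 CPM in replicate 1 and 83.6 CPM in replicate 2, and which is named here after its values were seen.

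The seeds can be set against known target mRNAs, which were not measured here. Among the 3′ untranslated regions of 21020 mouse genes (mm10, GENCODE M21, the longest of each gene), the match to the miR-29 seed, TGGTGCT on the mRNA strand, occurred in 2755, or 13.1%. It occurred in 7 of 9 matrix genes known as miR-29 targets, where the median share in regions of like length was 11.9%. Known targets are commonly sought by such matches, so a higher share among them is no evidence of targeting. Col5a1 held 4 matches, Eln 3 and Fbn1 2, while Col1a1, Col3a1, Col4a1 and Col5a2 held 1 each, and Col1a2 and Sparc held none. The match to the miR-21 seed, ATAAGCT, occurred in 1510 regions, or 7.18%. Among genes known as miR-21 targets it occurred in Spry1, Spry2, Pdcd4, Timp3 and Reck, and not in Tpm1. Only the mRNA strand was searched, and both motifs end in GCT. The sites in the collagens of the heart's matrix, elastin and the best known miR-21 targets are shown as 24 bases with the match in capitals, Col1a1 and Col3a1 on the plus strand at chr11:94952523-94952546 and chr1:45348967-45348990, Eln on the minus strand at chr5:134703735-134703758, and Spry1 and Pdcd4 on the plus strand at chr3:37643858-37643881 and chr19:53929417-53929440.
Col1a1: gtgggaaggaatttcTGGTGCTat
Col3a1: ttcaaaatgtctcaaTGGTGCTat
Eln: cgacctcatcaacgtTGGTGCTac
Spry1: catgtaagtgcttaaATAAGCTat
Pdcd4: agtgtgggtgttctgATAAGCTac
Each of these matches pairs with bases 2 to 8 of the mature arms given above. A match describes the sequence, and repression at it was not measured.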

How the data were processed

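Small RNA libraries (fragments under 30 bases) from total RNA of the 2 heart samples were sequenced, and the deposited tables hold raw counts of reads for each miRNA gene, with mm10 and GENCODE M21 named by the description files deposited with them. Which aligner was run, and how, is not given in the sources used here. The tables do not name their 3 count columns; column 3 was taken as the sense counts from the values, since it holds nearly all reads of the members, and this role is an inference. Lines that name no gene (unmapped, multi-mapped, no feature, ambiguous) were left out of library totals; unmapped reads were 14.1% of the reads of replicate 1 and 13.1% of replicate 2, and reads with no feature 4.01% and 3.70%. Reads of CAST/EiJ alleles that differ from mm10 may have been lost, which was not tested.

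Members were looked up by GENCODE symbol and Ensembl ID, and all 5 matched the RefSeq sequence table, as did 1018 of the 2202 genes. CPM used the sense total. Each gene with 10 or more counts over both libraries was compared by Fisher's exact test (two-sided, Benjamini-Hochberg adjusted, threshold 0.05). Such a test compares the libraries; the quasi-likelihood test of edgeR was not run on 1 library against the other, a contrast that leaves no residual freedom, and its exact test took the dispersion from both libraries as 1 group. Log2 ratios used a pseudocount of 1 CPM and so understate differences of low genes. A fold rule counted genes over 2-fold apart with a mean count of 100 or more. Intervals were Wilson for shares and exact Clopper-Pearson for ratios of 2 counts. Beside the members, the genes named were the 3 nearest in log2(CPM + 1) to Mir21a, Mir29a and Mir29c, the 4 most abundant other fibrosis miRNAs and those at 0, genes with a member's seed, and cell type markers; Mir21b and the neighbours by mean level stand outside that rule. The symbol Mir18a of the fibrosis list matched no gene. This gene stands in the annotation as Mir18, was left out of the list's counts, and is named outside that rule, as is Mir19b-2. Members and lists were chosen with earlier results of these data known, and the target genes after the tables were at hand; 1 further miR-21 target of that list is not reported here, so no count over the miR-21 targets is given. Target regions were read from the GENCODE transcripts and regions of like length were 80 to 125% of a gene's own. Fisher's exact test and the log2 ratio were tried on simulated counts that held counting error alone. Spread between libraries was not simulated, and the other steps were not tested in this way. Alternatives tried were TMM and DESeq2 scaling, another pseudocount and filters, counts without regard to strand, all reads as the total, edgeR's exact test and each library alone. Tools were R 4.3.3, edgeR 4.0.16, DESeq2 1.42.0, Python 3.11.15, SciPy 1.17.1, NumPy 2.4.6, pandas 2.3.3 and matplotlib 3.10.9.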

Additional observations from a re-analysis of the deposited data

How the results depend on the processing

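Of 48 alternative values that use both libraries, 40 were classed as unchanged, and no direction was reversed. These 40 include 10 that changed the pseudocount alone and could not have been classed otherwise. For log2 ratios of the members, unchanged meant the same direction and side of the threshold. For levels and the ratio of Mir21a to the miR-29 genes, it meant a move smaller than the spread between the libraries. Where that spread is wide this class is loose. Mir29a was classed as unchanged at 159 CPM with all reads as the total, against 370 CPM in the main setting. For counts of genes, it meant staying within a fixed fold of the main count. Of the 15 log2 ratios of the members whose test was run anew, 14 kept their call (10 more changed the pseudocount alone, which does not enter the test), and Mir29b-1 passed the threshold with counts taken without regard to strand (log2 ratio 0.90, adjusted p = 0.032 by Fisher's exact test, over a range of 0.032 to 0.31). Mean levels moved by construction where the total changed. Mir21a was at 17572 CPM with counts without regard to strand, whose totals are smaller, and at 5712 CPM when all reads formed the total; by the same total Mir29b-1 was at 2.74, Mir29b-2 at 1.37, Mir29c at 28.3, Mir29a at 159 and the miR-29 genes summed at 192. The count of genes called between the libraries was 251 by Fisher's exact test and 2 by edgeR's exact test, and 76 genes in place of 42 were over 2-fold apart with a mean count of 10 or more. With either library left out, each level is that of the other library, which with 2 libraries cannot differ from the mean by more than the SD, and ranges run from 11680.5 to 15434.5 CPM for Mir21a, 203 to 538 for Mir29a, 48.9 to 83.4 for Mir29c, 4.47 to 8.34 for Mir29b-1, 2.37 to 4.05 for Mir29b-2 and 259 to 634 for the miR-29 genes summed; the log2 ratio of Mir21a to that sum runs from 4.20 to 5.90. No paired analysis was possible because the labels give a single group. Depth limits Mir29b-1 and Mir29b-2, with at most 35 counts in a library.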
